A study of Mus musculus with 9 samples.

Results

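The genes described here are 8 mouse genes for making, packaging and sensing monoamines: Th, Ddc, Gch1, Slc18a1, Slc18a2, Hdc, Drd1 and Drd2. They were taken by symbol from a table of 38195 gene symbols, and all 8 were found, Drd1 under its older symbol Drd1a. The study profiled polyadenylated RNA from the hypothalamus of CD-1 mouse embryos at E12.5, an age at which the tissue is still producing neurons. From coronal vibratome slices, 3 zones were dissected: the ventricular zone beside the ventricle, where progenitors divide, the medial mantle zone next to it, and the lateral mantle zone at the outer side. Each zone had 3 libraries, all of strain CD-1 with no allele or treatment named. Nothing in the labels ties a library to its own embryo or litter, so every p-value measures the spread between these libraries, which may be technical.

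Catecholamine neurons turn tyrosine into L-DOPA with tyrosine hydroxylase (Th) and L-DOPA into dopamine with aromatic L-amino acid decarboxylase (Ddc). Histamine neurons make histamine from histidine with histidine decarboxylase (Hdc). Both transmitters are loaded into vesicles by the vesicular monoamine transporter Slc18a2, and the adult hypothalamus holds dopamine neurons as well as the histamine neurons of the tuberomammillary nucleus.

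Values are FPKM, fragments scaled to transcript length and to library total, and so can be compared between genes. The size of the smallest steps in each column gave an estimate of depth: 7 libraries held about 4.42e+06 to 8.82e+06 fragments. Ventricular replicate 3 held only about 261258, which is 24.7-fold below the median library, and medial replicate 3 about 539556, 12.0-fold below it. A single fragment on a 2 kb transcript was worth 1.91 FPKM in ventricular replicate 3 and 0.927 FPKM in medial replicate 3, so a 0 in these libraries says little. Marker genes of other cells moved with the zones. The 10 progenitor markers summed to 970 to 2084 FPKM in the ventricular zone, 939 to 1105 in the medial and 88.4 to 123 in the lateral mantle zone, the 9 neuron markers measured to 534 to 966, 952 to 1098 and 1228 to 1477 FPKM, and the 10 red cell markers to 2406 to 2831, 1705 to 3173 and 417 to 775 FPKM. The 11 microglia markers summed to 12.2 to 24.7, 13.7 to 29.1 and 41.9 to 57.5 FPKM. All 10 hypothalamus markers were tested and summed to 198 FPKM or more in every library, with Rax, a progenitor gene of the region, listed at 0 in the 3 lateral libraries. In such bulk tissue, fewer cells of a type and less RNA per cell cannot be told apart. The part of these cell mixtures and depths in the results was not tested, except where a value without the shallow libraries is given.

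The promoters of Th and Slc18a2 are shown because the enzyme and the vesicle transporter serve the same transmitter, and their levels across zones are set side by side later. Both carry the cAMP response element TGACGTCA, which reads the same on both strands and is printed in capitals. The windows run from 100 bases before the transcription start to 10 bases from it, 5′ to 3′ on the gene's strand, from RefSeq on GRCm38.p6: Th at chr7:142899986-142900095 on the minus strand and Slc18a2 at chr19:59260778-59260887 on the plus strand. The upper pair of lines shows these 2 windows, and the lower pair shows the 2 start sites of Ddc, at chr11:11890399-11890508 and chr11:11898135-11898244 on the minus strand, which lack this element.
Th: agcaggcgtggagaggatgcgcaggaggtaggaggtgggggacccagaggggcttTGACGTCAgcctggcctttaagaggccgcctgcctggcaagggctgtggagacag
Slc18a2: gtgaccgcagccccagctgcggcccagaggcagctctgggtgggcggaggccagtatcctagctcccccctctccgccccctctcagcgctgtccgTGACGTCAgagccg
Ddc: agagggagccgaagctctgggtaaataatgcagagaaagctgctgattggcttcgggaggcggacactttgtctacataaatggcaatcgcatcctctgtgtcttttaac
Ddc, other start: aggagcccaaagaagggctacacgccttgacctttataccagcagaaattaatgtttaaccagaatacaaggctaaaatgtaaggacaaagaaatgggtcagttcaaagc

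Over windows of 250 bases before and 50 bases from the start, TGACGTCA occurred in 588 of 32851 RefSeq promoters, or 1.79%. Of the 8 genes, 7 had such windows, and among these the element was found in those of Th and Slc18a2. A match is a description of the letters and not a binding site, and an absent match says only that these letters are not in the window.

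The summed FPKM of the 8 genes was 3.94 to 17.4 in the ventricular libraries, 60.8 to 63.2 in the medial and 20.6 to 35.4 in the lateral ones. Most of it came from Th, Ddc and Slc18a2, and the zones did not overlap in the sum.

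Th (GRCm38 chromosome 7, 142892752 to 142931128, minus strand) is the rate-limiting enzyme of catecholamine synthesis. Its level was 3.99, 2.93 and 0 FPKM in ventricular replicates 1 to 3, 18.8, 13.3 and 10.4 in the medial and 11.3, 7.26 and 12.6 in the lateral mantle zone. Both mantle zones were above all ventricular libraries, and they overlapped each other. The medial mean was 14.2 ± 4.23 FPKM (SD, n = 3) and the lateral mean 10.4 ± 2.80 (SD, n = 3). The 0 in ventricular replicate 3 stands where 1 fragment of Th was worth 1.96 FPKM, and the mean of the deeper ventricular libraries would have given 1.76 fragments.

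Ddc (chromosome 11, 11814101 to 11898144, minus strand) makes dopamine and also serves serotonin synthesis. Its level was 3.13, 5.22 and 0 FPKM in the ventricular, 22.0, 22.9 and 30.2 in the medial and 5.47, 9.34 and 14.8 in the lateral zone. No medial library overlapped either other zone, and the lateral libraries lay above the ventricular ones by a margin of 5.47 against 5.22 FPKM. Means were 25.0 ± 4.51 (medial) and 9.86 ± 4.68 FPKM (lateral) (SD, n = 3 each).

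Gch1 (chromosome 14, 47153895 to 47189413, minus strand) makes the first step of tetrahydrobiopterin, the cofactor of tyrosine hydroxylase. Its level was 0.186, 0.162 and 0 FPKM in the ventricular, 0.775, 0.444 and 0.666 in the medial and 0.423, 0.358 and 0.322 in the lateral zone. The 3 zones did not overlap, but all values were under 1 FPKM and the gene entered no model. In medial replicate 3 its 0.666 FPKM was about 1.26 fragments, and in ventricular replicate 3 a single fragment was worth 1.09 FPKM.

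Hdc (chromosome 2, 126593667 to 126619299, minus strand) had 1.04, 0.190 and 0 FPKM in the ventricular, 1.89, 1.23 and 1.18 in the medial and 0.124, 0 and 0.189 in the lateral zone. The medial libraries lay above all others, and the ventricular and lateral ones overlapped. This is a low level: the medial mean of 1.43 ± 0.393 FPKM (SD, n = 3) was above 10.5% of the tested genes. Mast cells also make histamine with this enzyme, and of their markers Mcpt4, Tpsb2, Cma1, Ms4a2, Fcer1a and Mrgprb2 were listed at 0 in all 9 libraries. Of the 10 mast cell markers, 2 were tested, Kit and Hpgds. The 10 summed to 12.46 to 15.98 FPKM in the ventricular, 6.73 to 11.1 in the medial and 8.83 to 10.9 in the lateral zone. Most of this sum was Kit, with means of 12.2, 7.04 and 7.35 FPKM in these zones, and Hpgds had 1.69, 1.69 and 2.19.

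Slc18a2 (chromosome 19, 59260896 to 59296012, plus strand) encodes the vesicular monoamine transporter of neurons. Its level was 5.68, 7.78 and 3.94 FPKM in the ventricular, 12.8, 20.3 and 18.2 in the medial and 1.63, 2.46 and 3.17 in the lateral zone. The 3 zones did not overlap, with the medial libraries highest and the lateral ones lowest. Zone means were 5.80 ± 1.92, 17.1 ± 3.86 and 2.42 ± 0.769 FPKM (SD, n = 3 each), above 34.6%, 63.0% and 21.3% of the tested genes. It alone of the 8 genes had a value above 0 in the shallowest library, where its 3.94 FPKM was about 4.52 fragments and 7.72 were expected from the deeper ventricular libraries. Its exons share 111 bases with Gm29261, which was not analysed here, and the labels do not say that counting used strand.

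Slc18a1 (chromosome 8, 69037711 to 69089235, minus strand) encodes the other vesicular monoamine transporter, known from endocrine cells. Its level was 0.366, 0.215 and 0 FPKM in the ventricular, 0.183, 0.914 and 0 in the medial and 0, 2.07 and 0.0711 in the lateral zone. No zone stood apart, and the highest value came from lateral replicate 2 alone.

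Drd1 (chromosome 13, 54051183 to 54055705, minus strand) and Drd2 (chromosome 9, 49340627 to 49408177, plus strand) encode dopamine receptors that raise and lower cyclic AMP. Drd1 was listed at 0.0480, 0.0314 and 0 FPKM in the ventricular, 0.0401, 0.129 and 0 in the medial and 0.0822, 0 and 0 in the lateral zone. These values amount to at most about 2.98 fragments in any library, so no zone difference was detectable at this depth. Drd2, which also serves as the autoreceptor of dopamine neurons, had 0.585, 0.844 and 0 FPKM in the ventricular, 4.41, 3.58 and 2.51 in the medial and 1.60, 1.93 and 4.26 in the lateral zone. All mantle libraries lay above the ventricular ones, and the mantle zones overlapped, with means of 3.50 ± 0.952 and 2.599 ± 1.45 FPKM (SD, n = 3 each).

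The zones were compared with limma on log2(FPKM + 1), fitted over the 14004 genes that reached 1 FPKM in at least 3 libraries, with Benjamini-Hochberg adjustment over all of them and a threshold of 0.05. On this scale the changes of low genes are understated. Th, Ddc, Slc18a2, Hdc and Drd2 were tested, and Gch1, Slc18a1 and Drd1 stayed below the filter. Each gene also had an exact two-sided permutation test in each comparison, 24 in all; with 3 against 3 libraries its p cannot go below 0.1, and the lowest value after adjustment over the 24 was 0.16.

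**Figure D1:**
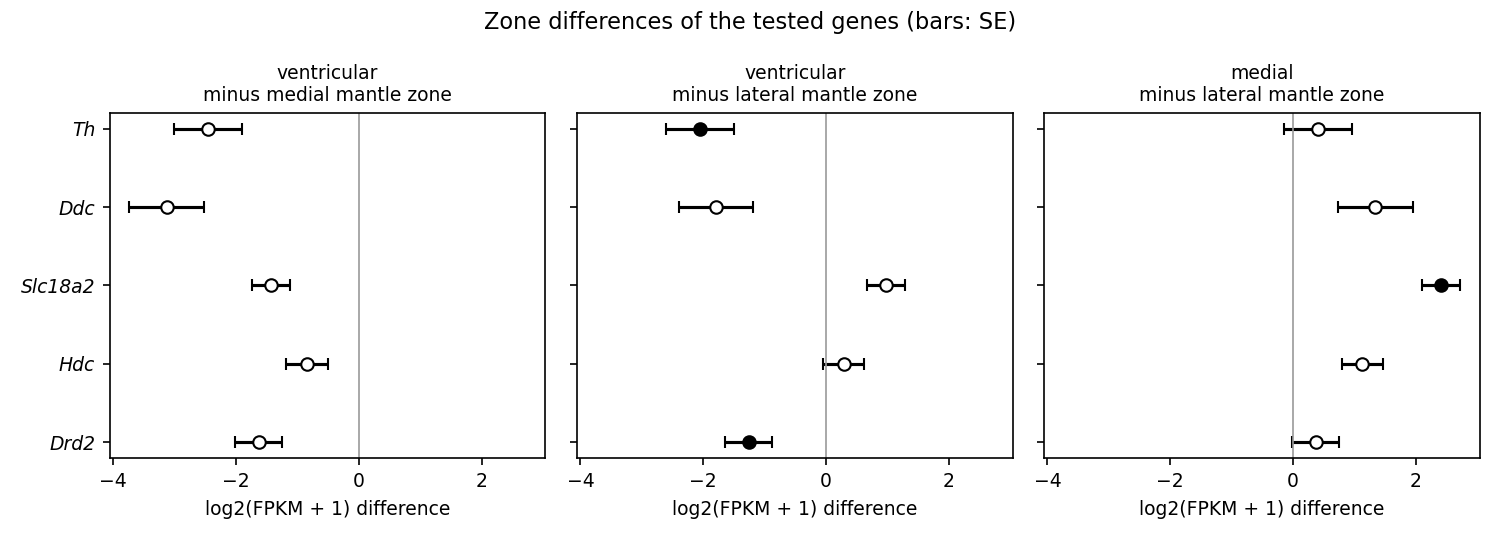
Difference in log2(FPKM + 1) between zones (x axis, point and standard error from limma, 3 libraries per zone) for the 5 tested genes in the 3 comparisons. Filled points passed an adjusted p of 0.05: Th and Drd2, lower in the ventricular than the lateral zone, and Slc18a2, higher in the medial than the lateral zone.

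Between the mantle zones, Slc18a2 was the tested gene that passed. It rose by 2.41 ± 0.31 (SE) on the log2 scale in the medial over the lateral zone (limma, adjusted p = 0.00413), a ratio of mean FPKM of 7.07, and it passed under all 20 alternative settings with adjusted p from 6.29e-05 to 0.0327. It was the 1 call among the 5 tested genes, in a comparison in which 4.12% of all tested genes passed, 3.58% with more and 0.543% with less in the medial zone. Thus 86.8% of the calls over all genes were higher in the medial zone, a share that was 66.6% after quantile scaling. Ddc was higher by 1.34 ± 0.61 and Hdc by 1.13 ± 0.34, without passing (limma, adjusted p = 0.249 and 0.1001). Leaving out both shallow libraries gave Hdc a difference of 1.20 and a limma adjusted p of 0.0389. Leaving out ventricular replicate 3 alone let both pass, with limma adjusted p of 0.0388 for Hdc and 0.0318 for Ddc. Hdc passed the filter on low values through its medial libraries and 1 ventricular library, so its values here are a description and no support. Th differed by 0.41 ± 0.55 and Drd2 by 0.37 ± 0.38 (limma, adjusted p = 0.722 and 0.629), differences within the spread between libraries. The median difference of all tested genes was 0.10.

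Ddc, Slc18a2 and Hdc were higher in every medial than in every lateral library, as was Gch1 (exact permutation p = 0.1 each, the smallest possible). Such separation in either direction was found for 40.4% of all tested genes, for 25.7% with the medial zone higher and for 14.8% with it lower. Being above both other zones in every medial library was rarer over all genes, 2.19%, and held for Ddc and Slc18a2. Hdc had the same order, but it passed the filter on low values through its medial libraries and 1 ventricular library. It is therefore not counted beside either share.

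Against the lateral zone, the ventricular zone had less Th and Drd2. Th fell by 2.05 ± 0.55 on the log2 scale and Drd2 by 1.26 ± 0.38 (limma, adjusted p = 0.0299 and 0.0454). These 2 of 5 stand beside 19.6% of all tested genes called, 8.93% lower and 10.7% higher in the ventricular zone. Drd2 reached 1 FPKM only in mantle libraries, so it entered the test through the zones where it is high and its call is no support. Ddc differed by -1.79 ± 0.61 and Slc18a2, in the opposite direction, by 0.98 ± 0.31, neither passing (limma, adjusted p = 0.0654 and 0.0541). Hdc differed by 0.29 ± 0.34 (limma, adjusted p = 0.568). In terms of separation, all ventricular libraries lay below all lateral ones for Th, Ddc, Drd2 and Gch1 and above them for Slc18a2. For Drd2 and Gch1, the 0 of ventricular replicate 3 could not be told from the lateral level at that library's depth. For Ddc, 3 fragments there were worth 5.69 FPKM, so its 0 could not be told from the 5.47 FPKM of lateral replicate 1. Over all tested genes 45.1% separated, 19.9% lower and 25.2% higher in the ventricular zone, so a separation in this comparison was common.

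Both calls changed with the setting. Without the 2 shallow libraries, Th differed by -1.33 with an adjusted p of 0.0105 and Drd2 by -1.002 with an adjusted p of 0.0516 (limma). The call for Th was lost in 6 of 20 alternatives, among them each omission of a lateral library, which gave limma adjusted p values from 0.0667 to 0.1001. The call for Drd2 was lost in 13 of 19, with adjusted p from 0.00742 to 0.163, and of the 9 omissions of 1 library only those of ventricular replicate 2 and medial replicate 3 kept it. Ddc passed without ventricular replicate 2 (limma, adjusted p = 0.0184). Slc18a2 passed against the lateral zone without the shallow libraries, with a difference of 1.19 and an adjusted p of 0.0186.

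Between the ventricular and the medial zone, none of the 5 genes passed limma's adjusted threshold, and 0% of the 14004 tested genes did. At an unadjusted p under 0.05 there were 1661 genes, or 11.9%, and all 5 tested genes were among them. Drd2 passed the filter on low values only through mantle libraries, and Hdc through its medial libraries and 1 ventricular library. The place of these genes among the 5 is therefore no support. Ddc differed by -3.13 ± 0.61, Th by -2.46 ± 0.55, Drd2 by -1.63 ± 0.38, Slc18a2 by -1.43 ± 0.31 and Hdc by -0.84 ± 0.34 (limma, adjusted p = 0.206, 0.287, 0.318, 0.278 and 0.393). Th, Ddc, Slc18a2 and Drd2 were lower in every ventricular than in every medial library, where 14.7% of all tested genes separated, 9.3% lower and 5.36% higher in the ventricular zone. Hdc and Gch1 were in the same order, but in ventricular replicate 3 their 0 could not be told from the medial level, since 3 fragments were worth 2.54 FPKM for Hdc and 3.27 for Gch1. The same holds for Drd2, at 4.51 FPKM. The differences were smaller without both shallow libraries: Th then differed by -1.93 and Ddc by -2.21 (limma, adjusted p = 0.144 and 0.227). Leaving out ventricular replicate 2 instead made 571 genes pass, Ddc, Slc18a2 and Th among them, with adjusted p of 0.0151, 0.0313 and 0.0434.

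**Figure D2:**
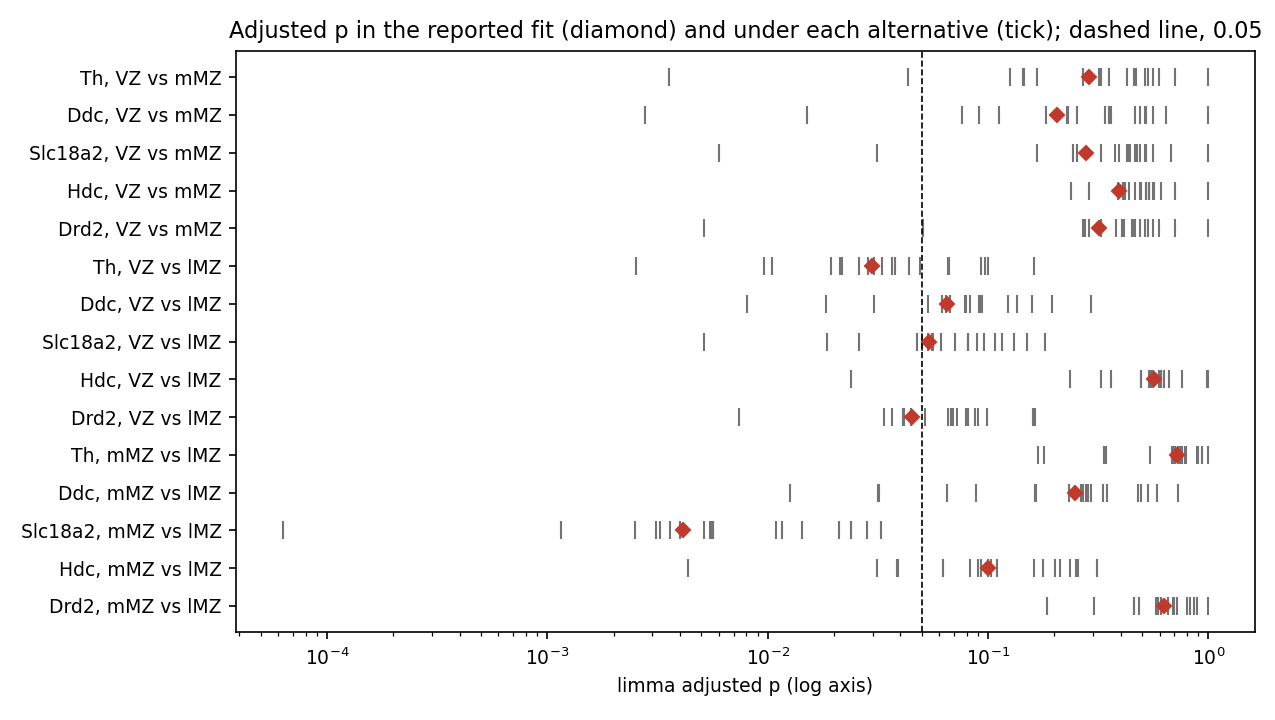
Adjusted p of limma (x axis, log scale, dashed line at 0.05) for the 5 tested genes in each comparison, as reported (diamond) and under each alternative setting (ticks). All ticks of Slc18a2 in the medial against the lateral zone lie below 0.05, whereas those of Th and Drd2 in the ventricular against the lateral zone lie on both sides.

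Ratios within a library do not depend on its total. The ratio of Slc18a2 to Th FPKM was 0.683, 1.52 and 1.74 in the medial libraries and 0.144, 0.338 and 0.251 in the lateral ones. In the deeper ventricular libraries the ratio was 1.42 and 2.65. Every lateral library had less Slc18a2 than Th, and the medial and lateral ratios did not overlap. In log2(FPKM + 1), Slc18a2 minus Th was 0.27 ± 0.68 in the medial and -1.73 ± 0.48 in the lateral zone (SD, n = 3 each, exact permutation p = 0.1, the smallest possible). Because of the added 1, this difference is not the log2 of the ratios and is not free of the library total. The ratio of Drd2 to Th was 0.235, 0.269 and 0.240 in the medial and 0.141, 0.266 and 0.337 in the lateral libraries, which overlapped.

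**Figure D3:**
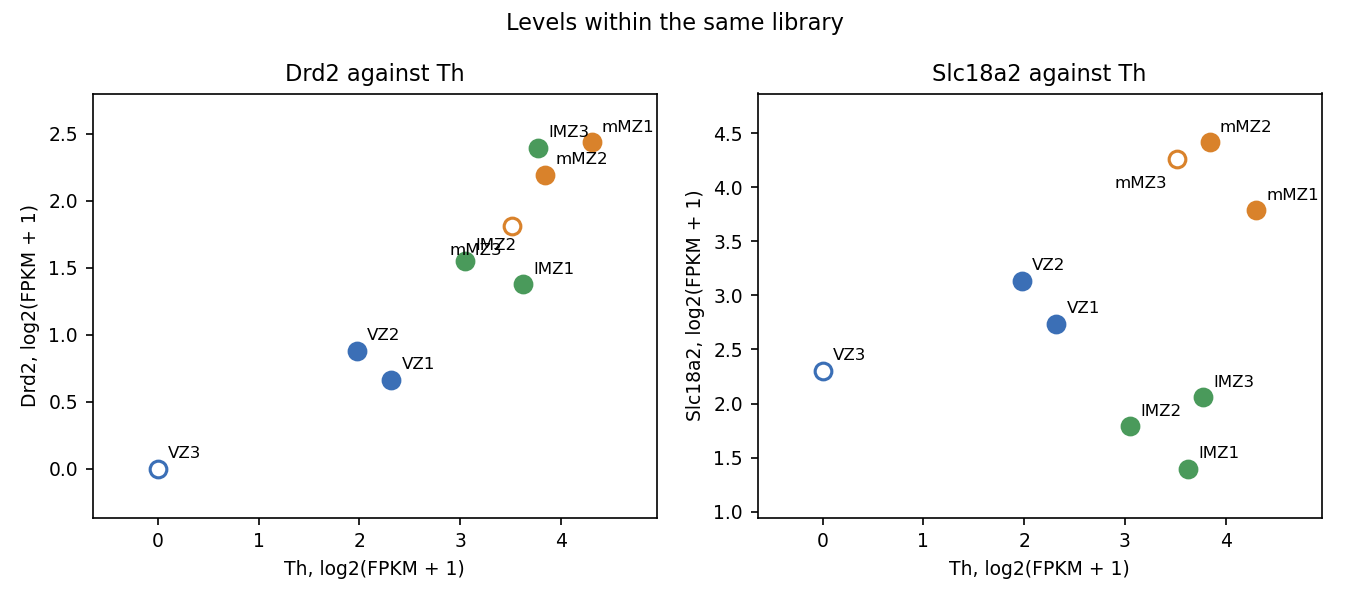
Drd2 (left) and Slc18a2 (right) against Th in each of the 9 libraries, on log2(FPKM + 1) axes, coloured by zone. Drd2 followed Th over the libraries, while the lateral libraries had low Slc18a2 at Th levels like those of the medial zone.

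Over the 9 libraries, Pearson's r with Th on log2(FPKM + 1) was 0.930 for Drd2, 0.906 for Ddc and 0.270 for Slc18a2, and over the 7 deeper ones 0.906, 0.816 and 0.165. Slc18a2 went with Hdc, at 0.815 and 0.802. These are descriptions, since the points share zones, libraries and depth. Among 9751 candidate genes, the one most like Slc18a2 was Lhx6 (r = 0.946 over 9 libraries), a homeodomain factor of GABA neurons with zone means of 3.68, 13.1 and 1.22 FPKM in the ventricular, medial and lateral zone. The most like Hdc were Nup62cl (r = 0.940) and Nr5a1 (r = 0.923), the nuclear receptor that marks the ventromedial hypothalamus, whose zone means were 3.57, 17.1 and 1.34 FPKM. Th was most like Tmem222 (r = 0.983) and the synaptic vesicle calcium sensor Syt1 (r = 0.963), Ddc most like Rabl5 (r = 0.960), and Drd2 most like Itm2c (r = 0.958) and Chrna4, a nicotinic receptor subunit (r = 0.944).

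Of 55 other genes of monoamine synthesis, transport, breakdown and reception, 16 were tested. None of these were other synthesis enzymes, other dopamine receptors or the 14 serotonin receptors, which stayed too low. By limma, none passed between the ventricular and medial or between the mantle zones, where 0% and 4.12% of all tested genes passed. Against the lateral zone, 3 were higher and 3 lower in the ventricular zone. Over all tested genes 19.6% were called in that comparison, 10.7% higher and 8.93% lower. The median difference of the 16 was -0.12, beside 0.05 for all tested genes. Slc29a4, the plasma membrane monoamine transporter, had 22.8, 27.7 and 13.7 FPKM in the ventricular and 51.4, 56.3 and 57.3 in the lateral libraries. It fell by 1.38 ± 0.24 (limma, adjusted p = 0.00535) and passed in all 20 alternatives. The adrenergic receptors Adra1b and Adra2c fell by 2.52 ± 0.44 and 1.58 ± 0.34 (limma, adjusted p = 0.00592 and 0.0136). The call for Adra2c was lost in 2 of 19 alternatives, with 0.0798 without a filter and 0.0661 without lateral replicate 1. Adra2c passed the filter on low values only through its lateral libraries, at 3.33, 1.98 and 1.59 FPKM, so its call is a description and no support. The same holds for Adra1b, which reached 1 FPKM only in mantle libraries and had 0.506, 0.407 and 0 FPKM in the ventricular ones. The histamine receptor Hrh3 had 14.4, 12.0 and 28.8 FPKM in the ventricular and 5.34, 8.24 and 7.36 in the lateral zone and rose by 1.20 ± 0.31 (limma, adjusted p = 0.0276), a call lost in 6 of 20 alternatives. Spr, which makes the last step of tetrahydrobiopterin synthesis, was higher by 1.65 ± 0.41 (limma, adjusted p = 0.0242, lost in 5 of 20 alternatives). Dbh, which turns dopamine into noradrenaline, was listed at 0 in all 9 libraries. The dopamine transporter Slc6a3 reached at most 0.446 FPKM, in lateral replicate 2. Among other vesicle transporters, the GABA carrier Slc32a1 had 4.60, 8.67 and 9.54 FPKM in the ventricular and 16.8, 15.6 and 13.1 in the lateral libraries and fell by 0.95 ± 0.27 (limma, adjusted p = 0.0346, lost in 8 of 20 alternatives). Its medial libraries had 23.1, 19.0 and 25.1 FPKM, above all libraries of both other zones, an order found for 2.19% of all tested genes. Slc18a2 had this order as well. Between the mantle zones Slc32a1 was higher in the medial zone by 0.53, without passing (limma, adjusted p = 0.295).

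Among 14 partners of dopamine receptors, 13 were tested. Over all tested genes, 19.6% were called in the ventricular against the lateral zone, 8.93% lower and 10.7% higher in the ventricular zone. Between the mantle zones 4.12% were called, 3.58% higher and 0.543% lower in the medial zone. Against the lateral zone, the ventricular zone had less of the G protein subunit Gnal (-2.35), the adenylyl cyclase Adcy5 (-1.62), the phosphodiesterase Pde1b (-1.22) and the opioid precursor Pdyn (-3.43), and more of Gnai2 (1.07), each passing limma's adjusted threshold. Gnal lost its call in 8 of 20 alternatives, Adcy5 in 9 and Pde1b in 5, while Pdyn and Gnai2 kept theirs in all 20 in this comparison. Pdyn had 0, 1.60 and 0 FPKM in the ventricular libraries. It passed the filter on low values through its mantle libraries and 1 ventricular library, so its call is a description and no support. Gnai2, an inhibitory G protein subunit that Drd2 can use, was also higher in the medial than in the lateral zone, by 1.17 ± 0.18 (limma, adjusted p = 0.00761, and 0.0556 without a filter). Of 22 transcription factors known from dopamine neurons, 18 were tested, beside 3.58% of all tested genes called higher in the medial than the lateral zone. Between the mantle zones, Dlx1, Dlx2 and Dlx5 were higher in the medial zone, by 1.30 ± 0.14, 2.02 ± 0.31 and 1.20 ± 0.28 (limma, adjusted p = 0.0023, 0.00761 and 0.0451), the last lost in 10 of 20 alternatives and Dlx2 in 1, without a filter (0.0742). In the ventricular against the lateral zone, 3 rose and 5 fell, in a comparison in which 10.7% of all tested genes rose and 8.93% fell. Nr4a2, needed for midbrain dopamine neurons, had 19.7, 12.9 and 43.3 FPKM in the ventricular, 5.17, 11.4 and 0 in the medial and 1.42, 1.498 and 2.04 in the lateral zone, and was higher by 3.15 ± 0.80 in the ventricular than in the lateral zone (limma, adjusted p = 0.0252, lost in 7 of 20 alternatives). Otp, needed for hypothalamic neurons, fell by 2.04 ± 0.51 in the same comparison (limma, adjusted p = 0.0248, lost in 6 of 20 alternatives). By zone mean, Nr4a2 was highest in the zone where Th was lowest. Against the medial zone, however, its ventricular excess of 2.46 ± 0.80 did not pass (limma, adjusted p = 0.393). Its highest value and its medial 0 came from the shallow libraries. Ventricular replicate 2 and medial replicate 2, both deeper, had 12.9 and 11.4 FPKM.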

How the data were processed

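The deposited table holds FPKM values that the authors made per gene and library. Per the submitters' processing notes, reads were handled with Bowtie2 2.1.0 on mm10; the FPKM program was not given in the sources used here. Per the labels' protocols, total RNA was made into mRNA libraries and sequenced as read pairs. From 38370 rows, 42 exact copies and 133 others whose symbol occurred before were dropped, which left 38195 symbols. Zones came from the sample labels.

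Depth was estimated from whole multiples of the smallest FPKM steps: 60.2% to 66.1% of low values came out whole within 0.1, so no counts were recovered and no count test was run. Zones were compared with limma 3.58.1 in R 4.3.3 (trended, moderated fit over all 9 libraries) on log2(FPKM + 1), for genes of at least 1 FPKM in 3 or more libraries. The fit was tested on simulated data. Single genes had exact permutation tests (scipy 1.17.1). Alternatives covered the pseudocount, filter, scaling, library weights, samples fitted, replicate block and omission of libraries.

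The 8 genes and all gene lists were chosen with earlier results of these data known. The naming rule was the 8 genes, the 3 genes most like each tested one by Pearson's r, and, per list and comparison, up to 4 genes past the threshold by size of difference and up to 2 others by mean FPKM. The text prints part of these, and some listed genes are not reported here. Slc18a3 and Tubb3 were not analysed here. Promoters came from RefSeq (GRCm38.p6) and positions from GENCODE on GRCm38. The libraries were not treated as paired by replicate number.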

Additional observations from a re-analysis of the deposited data

How the results depend on the processing

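For 15 results of single genes, 294 values under 20 settings were computed: 251 kept their direction and side of the threshold, 19 lost and 23 gained a call, and 1 reversed (Hdc in the ventricular against the lateral zone, -0.014 without ventricular replicate 1, with a range of -0.014 to 0.50 when 1 library was left out). The counts of genes called moved more, and the cause was not tested. For ventricular against medial zone, where limma called 0 genes, it called 5 with a pseudocount of 5, 4 with a filter of 5 FPKM, 9 after quantile scaling, 3 after trimmed-mean scaling, 2761 with library weights, and 0 to 571 with 1 library left out. For ventricular against lateral zone, with 2750 called, it called 816 without a filter, 1684 with only the zones compared, 6800 with library weights, and 959 to 3958 with 1 library left out. For medial against lateral zone, with 577 called, it called 144 without a filter, 2027 with only the zones compared, 3700 with library weights, 1666 without both shallow libraries, and 207 to 1760 with 1 library left out. In that comparison 86.8% of calls were higher in the medial zone, and 66.6% after quantile scaling, which moved the median difference of all genes from 0.10 to -0.01. The estimation of library weights stopped before convergence. With the replicate number as a block, 0, 2901 and 703 genes were called in the 3 comparisons, and Drd2 against the lateral zone had an adjusted p of 0.0679 (limma). Deviations of same-numbered libraries correlated above 0.1 in 4 of 9 pairs (r from -0.098 to 0.249, and from -0.247 to 0.231 between other numbers). This falls short of every pair, so the libraries were not treated as paired, and whether same-numbered libraries share a batch was not settled. Depth limits the low genes: 3 fragments were worth 5.89 FPKM for Th and 4.51 for Drd2 in ventricular replicate 3.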
